A study of Mus musculus with 14 samples.

Results

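The metallothioneins and the genes that take up, store, oxidise and sense iron were followed in liver RNA of Snell dwarf mice and wild type control mice. The list held 10 genes, Mt1, Mt2, Hamp, Hfe, Trf, Tfrc, Fth1, Ftl1, Cp and Slc11a2, and members were all probe sets whose symbol in the array annotation was one of these. This gave 14 of the 12488 probe sets on the array, for 8 of the 10 genes (and of 8252 genes that the annotation names alone on a set). No probe set was listed for Trf, and the only set for Ftl1 also listed the pseudogene Ftl1-ps2, so neither gene is given a value. Of the 14 sets, 10 entered the tests, covering all 8 genes, and on each of them the lowest signal on any array was above the filter of 184.8. The other 4 sets were all for Tfrc: one with signals near the bottom of the scale and 3 control sets of the array.

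Each of the 14 arrays held total liver RNA of 1 mouse. The groups were dwarf mice of 22 months (animals 3, 4 and 8), wild type mice of 22 months (animals 1, 2 and 24), dwarf mice of 6 months (animals 83, 85, 87 and 89) and wild type mice of 6 months (animals 82, 84, 86 and 88). The dwarf mice carry the Snell mutation of Pit-1 (Pou1f1), a transcription factor of the pituitary. Without it the pituitary lacks thyrotropin, growth hormone and prolactin, and the mice stay small. The labels give no sex, strain, diet or batch. Values are MAS5 signals on a linear scale, with a trimmed mean of 500.4 on every array. A change in bulk liver can come from fewer cells of a type or from less RNA per cell, and these cannot be told apart.

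Metallothioneins are small cysteine-rich proteins that bind zinc and copper. Their genes are switched on by the zinc-sensing factor MTF1, which binds metal response elements in their promoters, and by glucocorticoids. Hepcidin, the product of Hamp, is the hormone by which the liver limits the entry of iron into blood, since it makes the iron exporter ferroportin disappear from cell surfaces. Hfe, transferrin receptors and bone morphogenetic protein (BMP) signals through SMAD factors set the level of Hamp according to iron, and interleukin-6 raises it through STAT3. Transferrin carries iron in blood, Tfrc takes it into cells, ferritin (Fth1 and Ftl1) stores it, Slc11a2 moves it out of endosomes and Cp, the copper protein ceruloplasmin, oxidises it.

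Because Mt1 and Mt2 differed between the genotypes in the same direction and lie next to each other on chromosome 8, the 250 bases before the start site that the promoter table gives for each are shown. The table is from RefSeq, build GRCm38.p6, plus strand, at chr8:94178839-94179088 for Mt1 and chr8:94172368-94172617 for Mt2. The Mt1 gene is annotated from position 94178883, so most of the Mt1 stretch lies inside the annotated gene. Mt2 is annotated from position 94172618, directly after its stretch, so the stretches are not placed alike. Capitals mark the core of the metal response element, TGCACNC or TGCGCNC, on either strand.
Mt1: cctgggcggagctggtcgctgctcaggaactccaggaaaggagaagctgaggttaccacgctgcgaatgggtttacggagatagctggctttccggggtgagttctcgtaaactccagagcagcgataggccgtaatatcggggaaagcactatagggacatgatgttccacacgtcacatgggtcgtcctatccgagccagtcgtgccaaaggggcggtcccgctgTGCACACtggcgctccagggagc
Mt2: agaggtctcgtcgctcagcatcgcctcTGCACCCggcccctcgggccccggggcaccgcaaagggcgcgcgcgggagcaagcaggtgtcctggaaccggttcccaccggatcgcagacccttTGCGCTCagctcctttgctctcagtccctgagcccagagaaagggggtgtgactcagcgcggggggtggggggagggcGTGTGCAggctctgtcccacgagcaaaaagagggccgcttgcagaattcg
The Mt1 stretch held 1 match and the Mt2 stretch held 3. Of the other members in the table, 1 of the 2 Tfrc stretches held 2 overlapping matches, and those of Hamp, Hfe, Fth1, Ftl1 and Cp held 0. At least 1 match was found in 21.4% of the 32851 stretches of this length in the table, and 2 or more in 5.17%. In the full windows of 300 bases, which run to 50 bases after the start site, Mt1 held 3 matches and Mt2 held 4. Of all such windows 25.7% held at least 1 match and 7.11% held 2 or more.

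For Hamp, 60 bases are shown that hold a match to the core of the BMP response element, GGCGCC, and one to the core of a STAT site, TTCNNNGAA. The near copy Hamp2 is shown beside it, because no probe set of the array was listed for Hamp2 and it is not known here whether the Hamp set also detects it. Both are from the minus strand of GRCm38.p6, at chr7:30944100-30944159 for Hamp and chr7:30924249-30924308 for Hamp2, and capitals mark the matches.
Hamp: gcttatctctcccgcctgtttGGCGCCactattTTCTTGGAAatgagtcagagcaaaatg
Hamp2: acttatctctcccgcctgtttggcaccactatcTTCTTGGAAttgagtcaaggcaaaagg
The GGCGCC match was present in Hamp and not in the Hamp2 window, and both held the STAT match. A GGCGCC match was also found for Tfrc, in 1 of its 2 windows. Of all 32851 windows of 300 bases, 11.9% held GGCGCC and 8.30% held TTCNNNGAA. A match to these letters is a description and not a measured binding site.

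The arrays differed in ways that touch the results below. For the beta-actin control, the 3' signal over the 5' signal, which is higher where RNA is degraded or labelled in part, was 1.25 to 1.57 in dwarf and 1.52 to 1.74 in wild type mice of 22 months, and 2.29 to 2.69 in dwarf and 1.16 to 2.38 in wild type mice of 6 months. In dwarf mice the ages did not overlap (two-sided p = 0.0286 by exact permutation, which is the least it can be, or 0.114 adjusted over 16 tests of array measures). The 25th percentile of the signals did not overlap between the genotypes at 6 months (56.5 to 74.1 in dwarf and 48.9 to 56.0 in wild type mice, exact p = 0.0286, adjusted p = 0.114). The 6-month wild type animal 88 had the lowest ratio of all arrays (1.16) and an 18S ribosomal RNA signal of 587.6, which lay with the 22-month arrays (339.8 to 4853) and above the other 6-month arrays (60.8 to 217.4). Hepatocyte markers were high on all arrays (6 of 8 listed genes had a probe set, all tested), and their summed signal was 157102 to 204848 in dwarf and 124385 to 151730 in wild type mice of 6 months, without overlap. At 6 months 3 of the 6 were higher and Fabp1 was lower. Sums of markers of other cells also did not overlap at 6 months: those of endothelial (8 of 9 genes with a set), stellate cell (7 of 8) and neutrophil markers (7 of 7) were 4200 to 5335, 8702 to 11644 and 1307 to 1611.0 in dwarf mice, against 3304 to 4153, 7045 to 7950.2 and 919 to 1152 in wild type mice. Of the tested markers 3 of 5 endothelial, 1 of 5 stellate cell and 0 of 3 neutrophil genes were called, all as higher. Over all tested sets 6.37% were called as higher and 6.95% as lower at 6 months. Pancreatic acinar markers (3 of 7) had sums of 993 to 1876 in dwarf and 1965 to 2897 in wild type mice of 6 months, and of 858 to 1570 in dwarf and 2446 to 2620 in wild type mice of 22 months, but Cela1 alone was called, as lower at both ages, and the median log2 change of the 3 genes was 0.04 at 6 and 0.02 at 22 months. Kupffer cell markers (10 of 13, 1 of them at the floor on all arrays) overlapped at 6 months and had sums of 4579 to 5899 in dwarf and 6639 to 10415 in wild type mice of 22 months. Endothelial sums at 22 months were 3353 to 3793 in dwarf and 3994 to 4148 in wild type mice. Erythroid (6 of 10) and lymphocyte markers (8 of 10, 1 at the floor on all arrays) had sums that overlapped between the genotypes at 6 months, although 2 of 4 tested lymphocyte markers (Jchain and Cd79b) were called as higher and 1 of 3 erythroid markers (Alas2) as lower. The part of these differences in the results was not tested, except where a value is given.

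Over all 8 genes, 3 changed in dwarf mice at 6 months: Mt1 was higher, and Hamp and Hfe were lower. These calls are from limma with Benjamini-Hochberg adjustment over the 7227 tested probe sets, of which 13.3% were called in that comparison, 6.37% as higher and 6.95% as lower. Without adjustment 5 of the 8 had a p under 0.05, against 29.0% of all sets. Across the 8 genes the median log2 change was 0.04, against 0.10 over all tested probe sets, and 4 of the 8 had signals that did not overlap between the genotypes, against 17.1% of all tested sets. At 22 months none of the 8 genes passed, where 2.93% of all sets did. Without adjustment 4 of the 8 had a p under 0.05 (12.8% of all sets), and 5 of the 8 did not overlap between the genotypes (21.8% of all sets). Averaged over the ages, Mt1 and Mt2 were higher and Hfe was lower in dwarf mice (3 of 8, against 10.3% of all sets, 4.65% as higher and 5.62% as lower). Without adjustment 5 of the 8 had a p under 0.05 in the average, against 23.8% of all sets.

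**Figure D1:**
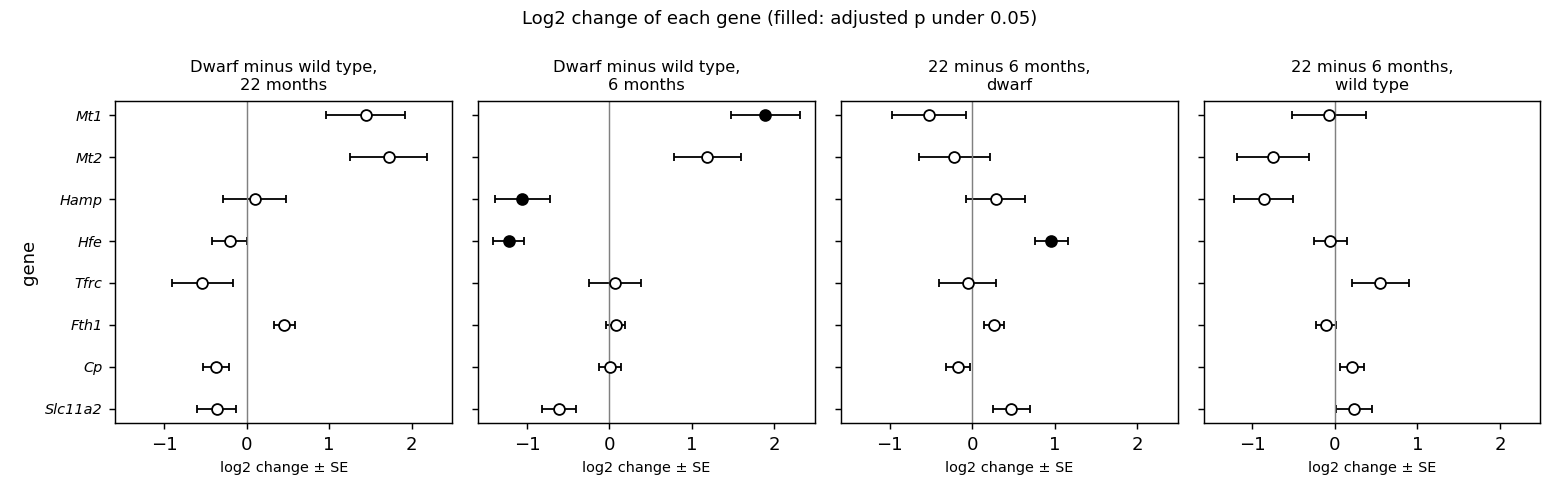
Log2 change (horizontal axis) of each of the 8 genes (rows) in 4 comparisons (panels), with the standard error from limma as the bar; filled points had an adjusted p under 0.05. Mt1 (1.89), Hamp (-1.05) and Hfe (-1.22) are filled for dwarf minus wild type at 6 months, and Hfe (0.96) for 22 minus 6 months in dwarf mice.

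Among the 8 genes the largest difference between the genotypes was that of Mt1 at 6 months and of Mt2 at 22 months. Mt1 had signals of 24368, 19784 and 12530 in dwarf mice of 22 months, against 4651, 6480 and 9916 in wild type mice of 22 months. At 6 months it had 27275, 34166, 23115 and 21558 in dwarf mice, against 17696, 3051, 4674 and 9709 in wild type mice. At both ages every dwarf mouse lay above every wild type mouse, and the wild type mice of 6 months were spread over 5.80-fold. At 6 months Mt1 averaged 26528 ± 5635 in dwarf mice and 8783 ± 6584 in wild type mice (SD, n = 4 each), a log2 change of 1.89 ± 0.41 (SE, limma, adjusted p = 0.00667), or 3.71-fold. At 22 months the change was 1.45 ± 0.48 (n = 3 each, limma adjusted p = 0.145). The test of the difference between the ages gave -0.45 ± 0.63 (adjusted p = 0.806), so the age at which Mt1 passed is not shown to be particular.

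Mt2, the neighbouring gene, followed Mt1 mouse by mouse. It had signals of 21788, 22768 and 10229 in dwarf mice of 22 months, against 2892, 4892 and 10015 in wild type mice of 22 months. At 6 months the signals were 22965, 28022, 16324 and 15139 in dwarf mice, against 17872, 5114, 6780.0 and 9500.1 in wild type mice. At 22 months the lowest dwarf mouse, animal 8, lay just above the highest wild type mouse, animal 24. At 6 months the groups overlapped through wild type animal 82, which was the highest wild type mouse for both metallothioneins. The log2 change of Mt2 was 1.19 ± 0.40 at 6 months (adjusted p = 0.0612) and 1.72 ± 0.46 at 22 months (adjusted p = 0.0593), and neither passed. Leaving out 1 array moved the 6-month change of Mt1 between 1.49 (without wild type animal 84) and 2.34 (without animal 82), and it passed each time. For Mt2 these fits gave 0.93 without animal 84 (limma adjusted p = 0.157) and 1.53 without animal 82 (0.0182), the only array whose removal made it pass. For Mt2 at 22 months the change ran from 1.30 without wild type animal 1 (adjusted p = 0.243) to 2.19 without wild type animal 24 (0.0182). It passed there also without dwarf animal 8 (2.10, adjusted p = 0.0279), and it did not without dwarf animal 3 (1.55, 0.230), dwarf animal 4 (1.52, 0.226) or wild type animal 2 (1.67, 0.156).

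Averaged over both ages, Mt1 was higher by 1.67 ± 0.32 and Mt2 by 1.45 ± 0.31 on the log2 scale (limma adjusted p = 0.00234 and 0.00524). These averages are 3.18-fold and 2.74-fold. Both calls held under all 24 alternatives that were run, with adjusted p up to 0.0257 for Mt1 and up to 0.0425 for Mt2. Neither gene passed with age. The log2 change from 6 to 22 months was -0.52 ± 0.45 for Mt1 and -0.22 ± 0.43 for Mt2 in dwarf mice, and -0.07 ± 0.45 and -0.75 ± 0.43 in wild type mice.

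**Figure D2:**
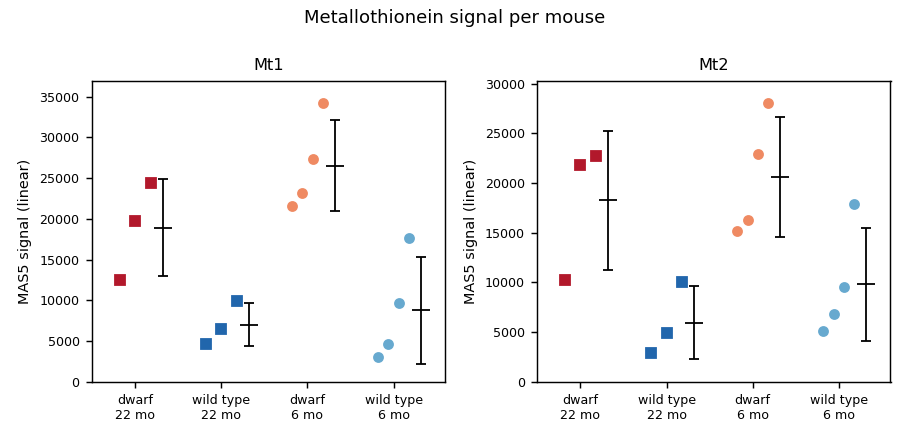
MAS5 signal (vertical axis, linear, from 0) of Mt1 and Mt2 in each mouse by group (horizontal axis); the bar beside the points is the mean with SD. For Mt1 all 7 dwarf mice lie above the wild type mice of their age, and for Mt2 the 6-month groups overlap through 1 wild type mouse at 17872.

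Mice high in one metallothionein were high in the other also within groups. After removal of the group means, the log2 signals of Mt1 and Mt2 had a Pearson r of 0.912 (n = 14, permutation p = 0.00017) and a Spearman rho of 0.899 (permutation p = 0.00017), each 0.00051 after adjustment over 3 pairs of genes. Without the 2 mice farthest from the median of Mt1, r was 0.907 (n = 12). Mt1 and Mt2 share much of their sequence, and whether a probe set detects both transcripts was not tested. The other pairs were Tfrc with Fth1 (r = 0.209, rho = 0.187, permutation p = 0.516 and 0.576, adjusted p = 0.516 and 0.576, r = 0.407 without the 2 farthest mice) and Hamp with the BMP target Id1 (r = 0.300, rho = 0.209, permutation p = 0.477 and 0.558, adjusted p = 0.516 and 0.576, r = -0.079 without them).

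**Figure D3:**
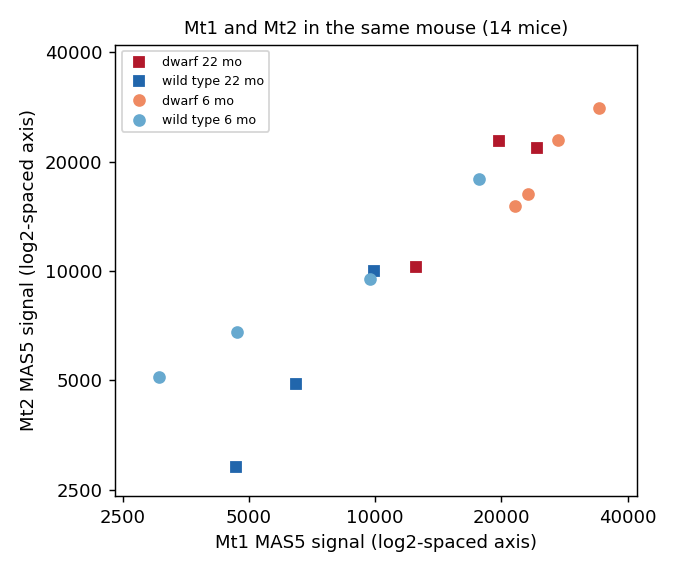
Signal of Mt1 (horizontal axis) and of Mt2 (vertical axis), both on log2-spaced axes, in the same mouse; each point is 1 of 14 mice, coloured by group. The points run from wild type mice at the lower left (Mt1 3051 to 9916 in 6 of 7) to dwarf mice at the upper right (Mt1 12530 to 34166).

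On the list of metal-responsive genes (15 listed), none beside Mt1 and Mt2 passed between the genotypes. Of the 8 others tested, 0 were called at 6 months and 0 at 22 months by limma. Over all sets 13.3% and 2.93% were called, so a count of 0 among 8 is near the background. Mt3, a metallothionein known mainly from brain, had signals of 1179.55 in dwarf and 719 in wild type mice of 6 months (log2 change 0.78 ± 0.25, adjusted p = 0.0541). Mtf1, the zinc sensor, had a log2 change of 0.75 ± 0.47 at 6 months (adjusted p = 0.310), and the zinc exporter Slc30a1, also a target of MTF1, had 0.22 ± 0.30 (adjusted p = 0.647). Only Slc39a4, a zinc importer, passed with age in dwarf mice (-0.68 ± 0.21, 1317 at 22 months against 2096 at 6 months, limma adjusted p = 0.0376), and that call held in 7 of 18 alternatives. Over all sets 16.5% were called with age in dwarf mice.

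Hamp, the hepcidin gene, was lower in young dwarf mice. Its signals were 21528, 20243 and 12616 in dwarf mice of 22 months, against 28496, 7348 and 21479 in wild type mice of 22 months. At 6 months they were 17295, 18528, 8924 and 15396 in dwarf mice, against 30433, 33932, 30797 and 25690 in wild type mice. At 6 months all dwarf mice lay below all wild type mice, with a mean of 15036 ± 4273 against 30213 ± 3400.1 (SD, n = 4 each), while at 22 months the groups overlapped and the wild type mice alone were spread over 3.88-fold. The log2 change was -1.05 ± 0.33 at 6 months (2.08-fold lower, limma adjusted p = 0.0481) and 0.10 ± 0.39 at 22 months (adjusted p = 0.979). The 6-month call lay close to the threshold. It was lost without any 1 of 7 of the 8 arrays (adjusted p 0.0517 to 0.149; dwarf animal 85 was the exception, with 0.0498), and the change itself stayed between -1.17 and -0.82. The call was also lost without an intensity trend (adjusted p = 0.0762), with array weights (0.0638) and without the filter (0.147). The difference between the ages was 1.15 ± 0.51 (adjusted p = 0.317). The sign at 22 months rested on single mice, since leaving out 1 array gave -0.49 to 0.49. Averaged over the ages Hamp did not pass (-0.48 ± 0.26, adjusted p = 0.274), but it did without wild type animal 2, the lowest of the old wild type mice (-0.77, adjusted p = 0.0151). With age, Hamp had a log2 change of -0.87 ± 0.36 in wild type mice (adjusted p = 0.224; -0.28 without wild type animal 2, -1.26 without wild type animal 1 and -0.16 with the 18S signal as a covariate) and 0.29 ± 0.36 in dwarf mice (adjusted p = 0.610).

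Hfe, the haemochromatosis protein that helps hepatocytes sense iron-loaded transferrin, was lower in young dwarf mice with the smallest adjusted p of the members. At 22 months the signals were 643.1, 531.9 and 659.1 in dwarf mice, against 624.1, 906.2 and 612.2 in wild type mice. At 6 months they were 300.0, 235.5, 369.3 and 367.9 in dwarf mice, against 821.5, 638.4, 653.1 and 826.3 in wild type mice. The 4 young dwarf mice lay below the other 10 mice of the study, and the 22-month groups overlapped. The log2 change was -1.22 ± 0.19 at 6 months (2.33-fold lower, limma adjusted p = 0.000368), and it passed under all 19 alternatives, with adjusted p up to 0.0027. At 22 months it was -0.21 ± 0.21 (adjusted p = 0.833). The difference between the ages was 1.01 ± 0.28 and did not pass (adjusted p = 0.0876, and 0.0447 to 0.243 over 24 alternatives, 3 of which passed, among them the fit without wild type animal 2, with 1.20 and 0.0452). None of the 8 genes passed the test of the difference between the ages, where 2.19% of all sets did, and 3 of the 8 had an unadjusted p under 0.05 (14.4% of all sets). Averaged over the ages Hfe had a change of -0.71 ± 0.14 on the log2 scale (adjusted p = 0.00342), a call that held in all 24 alternatives. 

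In dwarf mice Hfe was higher at 22 than at 6 months, with a mean of 611 ± 69.3 (SD, n = 3) against 318 ± 63.9 (n = 4) and a log2 change of 0.96 ± 0.20 (limma adjusted p = 0.0068). Counting the probe set that represents each gene, it was the only 1 of the 8 called with age in dwarf mice (the second Slc11a2 set was also called, as lower), where 16.5% of all sets were called, 7.94% as higher. Without adjustment 3 of the 8 passed (32.8% of all sets), and 2 of the 8 did not overlap between the ages (29.1% of all sets). The ages of the dwarf mice also differed in the 3' to 5' ratio and in the 18S signal. With the array's 3' to 5' ratio in the model the change was 0.70 (adjusted p = 0.216), and with the 18S signal it was 0.70 (adjusted p = 0.129), so the call was lost with either. The genotype difference at 6 months passed with both covariates (-1.11 and -1.16, adjusted p = 0.0027 and 0.000536). Wild type animals 84 and 86, whose beta-actin ratios of 2.38 and 2.35 were close to those of the young dwarf mice, had Hfe signals of 638.4 and 653.1, above the highest young dwarf mouse at 369.3. Wild type animals 82 and 88 of 6 months, with lower ratios of 1.56 and 1.16, had higher Hfe signals of 821.5 and 826.3. The part of RNA quality in the genotype difference of Hfe was not tested. In wild type mice the change of Hfe with age was -0.05 ± 0.20 (adjusted p = 0.915). None of the 8 genes passed with age in wild type mice, where 2.49% of all sets did (1 of 8 at an unadjusted p under 0.05, Hamp, against 17.5% of all sets), and 0 of 8 were without overlap, against 15.9% of all sets.

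**Figure D4:**
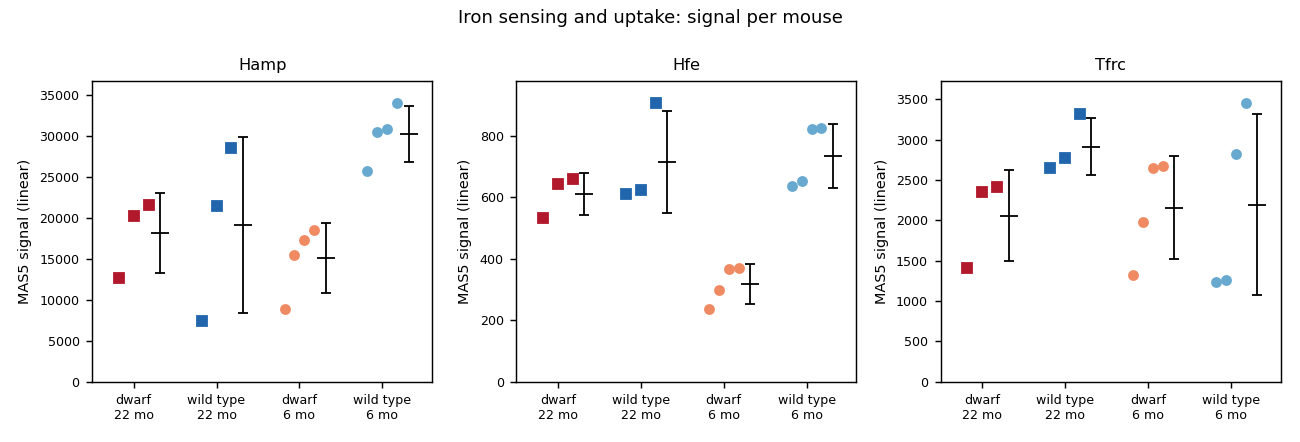
MAS5 signal (vertical axis, linear, from 0) of Hamp, Hfe and Tfrc in each mouse by group (horizontal axis), with mean and SD beside the points. The 4 dwarf mice of 6 months lie below all wild type mice of their age for Hamp (at most 18528 against at least 25690) and Hfe (at most 369.3 against at least 638.4), and Tfrc spreads widely within groups.

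Around these 2 genes, the list of hepcidin and BMP signalling held 28 genes, of which 14 besides Hamp and Hfe were tested. At 6 months 1 of the 14 was higher and 1 was lower, with a median log2 change of -0.02, and at 22 months 1 was lower, with a median of -0.17. Over all sets 13.3% were called at 6 months and 2.93% at 22 months, so the 6-month count is near the background. Id2, a target of BMP signals, was lower at both ages: it averaged 2807 in dwarf and 6246 in wild type mice of 22 months (-1.16 ± 0.20, limma adjusted p = 0.00234), and 3011 against 5482 at 6 months (-0.85 ± 0.17, adjusted p = 0.00411). Bmp4, a BMP ligand, was higher at 6 months (629 against 421, 0.58 ± 0.17, adjusted p = 0.0305). Averaged over the ages Id3 was lower (-0.54 ± 0.16, adjusted p = 0.0392). Tfr2, the second transferrin receptor and a partner of Hfe in iron sensing, had 2020.03 in dwarf and 2746 in wild type mice of 22 months (-0.41 ± 0.31, adjusted p = 0.708), and 1146 against 2073 at 6 months (-0.72 ± 0.27, adjusted p = 0.0918). The inhibitory SMADs, which BMP signals induce, had log2 changes of -0.05 ± 0.20 (Smad6) and 0.00 ± 0.20 (Smad7) at 6 months. Both Smad7 (-0.71 ± 0.21, limma adjusted p = 0.0351) and Furin, a protease that matures prohepcidin (0.51 ± 0.15, limma adjusted p = 0.0295), passed with age in dwarf mice, but in 6 of 17 and 8 of 18 alternatives. Over all sets 16.5% were called with age in dwarf mice. The call of Bmp4 held in 13 of 19 and that of Id3 in 12 of 24.

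The acute phase genes that interleukin-6 induces through STAT3 were also measured. Of 23 tested out of 26 listed, 7 were lower and 1 was higher at 6 months. Over all sets 6.95% were called as lower and 6.37% as higher there. The median log2 change was -0.36, against 0.10 over all sets. At 22 months 2 were lower, where 2.93% of all sets were called, with a median of -0.45 against 0.01. At 6 months the carrier protein Orm1 had signals of 401 in dwarf and 8786 in wild type mice (-4.79 ± 0.42), the pentraxin Apcs 3032 against 11345 (-1.92 ± 0.23) and the serum amyloid Saa2 723 against 16350 (-3.94 ± 0.75). Orm3 was also called as lower, with a mean of 66.2 in dwarf mice, close to the floor of 54.9, against 356 in wild type mice, so no fold is given for it. Stat3 itself was higher (0.53 ± 0.15, adjusted p = 0.0286), a call not recomputed under the alternatives. At 22 months Apcs (-1.71 ± 0.27) and Itih4 (-0.93 ± 0.20, a protease inhibitor chain) were lower, with limma adjusted p of 0.00118 and 0.0170, and the call of Itih4 held in 13 of 17 alternatives. In dwarf mice 4 of the 23 were higher and 1 was lower at 22 than at 6 months, where 16.5% of all sets were called. Orm1 was among the higher ones (3.92 ± 0.45, limma adjusted p = 0.000385). Its genotype difference changed with age (3.65 ± 0.64, adjusted p = 0.00878). Orm3 was called in both as well, the second in 5 of 23 alternatives.

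Tfrc, the receptor that brings transferrin-bound iron into cells, did not pass in any comparison. Its tested set had signals of 2355, 2414 and 1408 in dwarf mice of 22 months, against 2774, 2649 and 3317 in wild type mice of 22 months. At 6 months it had 2651, 1982, 2672 and 1327 in dwarf mice, against 1266, 3453, 1241 and 2826 in wild type mice. The 22-month groups did not overlap and the 6-month groups did, with a 2.78-fold spread among wild type mice. The log2 change was -0.54 ± 0.37 at 22 months (adjusted p = 0.646) and 0.07 ± 0.32 at 6 months (adjusted p = 0.905). The low set had signals of 3.5 to 98.8 over all arrays, and was not tested because it never exceeded the filter.

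Fth1, the ferritin heavy chain, was higher in every old dwarf mouse on its brighter probe set alone, without passing the test. On that set the signals were 18504, 16109 and 17224 in dwarf mice of 22 months, against 13592, 12130 and 12051 in wild type mice of 22 months. At 6 months they were 17151, 13274, 13948 and 13270 in dwarf mice, against 12640 to 14877 in wild type mice. All old dwarf mice lay above all old wild type mice, and the young groups overlapped. The log2 change at 22 months was 0.46 ± 0.13 (1.37-fold, limma adjusted p = 0.0785) and did not pass, although it did in 3 of 17 alternatives: quantile normalization (0.0245), the stricter filter (0.0388) and array weights (0.0170). At 6 months it was 0.08 ± 0.11 (adjusted p = 0.683), and the difference between the ages was 0.38 ± 0.17 (adjusted p = 0.328). The second Fth1 set had a log2 change of -0.20 ± 0.31 at 22 months (limma adjusted p = 0.915), so the sets differed in sign there. Its signals were 3931.7 to 7766.8 in dwarf and 5636.9 to 6369.2 in wild type mice of 22 months, and overlapped.

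Cp, the ferroxidase ceruloplasmin that the liver secretes, had 12321, 10728 and 13977 in dwarf mice of 22 months, against 18396, 14327 and 15037 in wild type mice of 22 months, without overlap. At 6 months it had 11189 to 16289 in dwarf mice and 12095 to 14418 in wild type mice. The log2 change was -0.37 ± 0.16 at 22 months (adjusted p = 0.326) and 0.01 ± 0.14 at 6 months (adjusted p = 0.974), and neither passed.

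Slc11a2, the divalent metal transporter, had 2 tested probe sets that lay on opposite sides of wild type in young dwarf mice. The set with the higher mean had 444.4, 388.4, 399.7 and 414.5 in dwarf mice of 6 months, against 753.0, 795.4, 490.5 and 520.9 in wild type mice, all lower without overlap. The second set had 548.6, 925.0, 642.0 and 559.8 in dwarf mice of 6 months, against 539.3, 472.6, 482.6 and 411.4 in wild type mice, all higher without overlap. In the older mice the first set had 497.6, 566.7 and 661.2 in dwarf mice, against 636.8, 1062.6 and 584.2 in wild type mice, and overlapped (-0.36 ± 0.24, adjusted p = 0.622). Neither passed at 6 months: the log2 change was -0.60 ± 0.21 for the first set (adjusted p = 0.0641) and 0.46 ± 0.21 for the second (adjusted p = 0.154). The first set did pass with median scaling (-0.80, limma adjusted p = 0.0192), with quantile normalization (-0.70, 0.0326), with the stricter filter (-0.60, 0.0456) and without wild type animal 86 (-0.72, 0.0435).

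The log2 ratio of the second Slc11a2 set to the first was taken within arrays, after the values were seen. Since the sets lay apart in opposite directions, the separation of the ratios at 6 months and between the ages in dwarf mice follows from that choice, and no test is given. It was 0.30 to 1.25 in dwarf mice and -0.75 to -0.02 in wild type mice of 6 months, a difference of 1.07. At 22 months the ratios were -0.67 to -0.42 in dwarf and -1.75 to -0.30 in wild type mice and overlapped. Between the ages in dwarf mice the ratio differed by -1.19. In the same comparison the second set was lower at 22 than at 6 months (403 ± 82.9, n = 3, against 669 ± 176, n = 4; -0.72 ± 0.22, limma adjusted p = 0.0407), a call lost without dwarf animal 3, 4, 85 or 87 (-0.76 to -0.55). With the 18S signal as a covariate that change was -0.37 (adjusted p = 0.438), and over 18 alternatives, 7 of which passed, the adjusted p ran from 0.0183 to 0.438. Slc11a2 is known to make transcripts with different ends, and which of them each set detects was not tested.

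**Figure D5:**
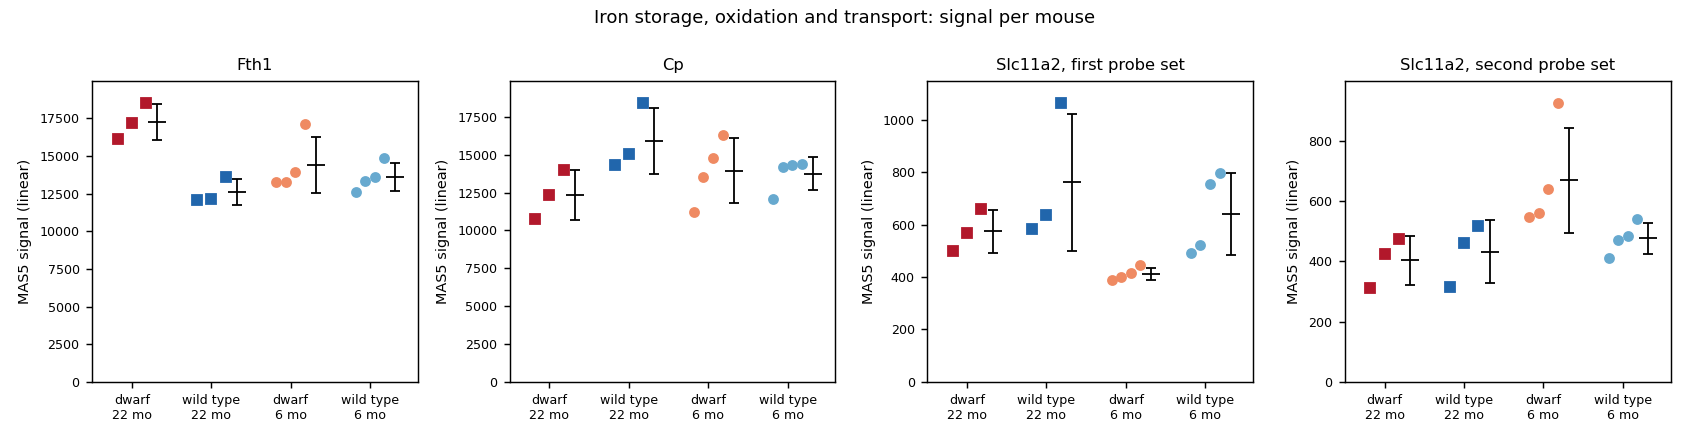
MAS5 signal (vertical axis, linear, from 0) of Fth1 (its brighter probe set alone), Cp and both probe sets of Slc11a2 in each mouse by group (horizontal axis), with mean and SD beside the points. Old dwarf mice lie above old wild type mice for this set of Fth1 (16109 or more against 13592 or less), and the 2 sets of Slc11a2 order the 6-month groups in opposite ways.

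Of 9 tested genes of iron uptake, storage and export beside the members (25 listed), 0 passed between the genotypes at either age by limma, where 13.3% of all sets did at 6 months and 2.93% at 22 months, so a count of 0 among 9 is near the background. Pcbp1, an iron chaperone, was higher with age in dwarf mice (0.47 ± 0.14, limma adjusted p = 0.0333), a call that held in 8 of 18 alternatives. Over all sets 16.5% were called with age in dwarf mice, 7.94% as higher. Of 6 tested genes of iron sensing and mitochondrial iron (16 listed), Nfs1, the sulfur donor of iron-sulfur clusters, was lower in young dwarf mice (598 against 916, -0.60 ± 0.15, adjusted p = 0.0146), and 0 passed at 22 months. Of 8 tested genes of haem handling and haemoglobin clearance (10 listed), 2 were lower at 6 months. These were Abcg2, an exporter that carries haem precursors (562 against 1508, -1.48 ± 0.20, adjusted p = 0.000142), and Slc46a1, a folate and haem importer (322 against 702, -1.14 ± 0.22, adjusted p = 0.00317). Hmox1, the enzyme that opens the haem ring and a stress gene, had 1218 in dwarf and 1162 in wild type mice of 6 months (0.07 ± 0.20, adjusted p = 0.850). Of 8 tested genes of copper handling beside Cp (10 listed), Ccs, the copper chaperone of superoxide dismutase, was lower at 6 months (734 against 1264, -0.83 ± 0.25, adjusted p = 0.0386). This call held in 8 of 19 alternatives. Ccs (1.12 ± 0.27) and Sod1 (1.19 ± 0.38) were higher at 22 than at 6 months in dwarf mice, where 7.94% of all sets were called as higher. These calls held in 15 and 8 of 18 alternatives, with a change of Sod1 as low as 0.45.

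Genes that glucocorticoids induce were also listed, since the metallothioneins are among their targets. Of all sets 6.37% were called as higher at 6 months, and 2.93% in either direction at 22 months. Of 14 tested (17 listed), 3 were higher and 0 lower at 6 months (median log2 change 0.35, against 0.10 over all sets), and 1 was higher at 22 months (median 0.29, against 0.01). At 6 months these were Igfbp1, an IGF binding protein (9913 against 267, 5.07 ± 0.68), the kinase Sgk1 (598 against 222, 1.36 ± 0.29) and Nfkbia (0.59 ± 0.16), whose call held in 12 of 19 alternatives. At 22 months it was Hsd11b1, which regenerates active glucocorticoid (16710 against 11523, 0.53 ± 0.13, limma adjusted p = 0.0411), a call that was lost without any 1 of the 6 arrays (0.46 to 0.58) and held in 5 of 17 alternatives. Averaged over the ages 3 of the 14 were higher and 0 lower, where 4.65% of all sets were called as higher. Hsd11b1 was among the 3 (0.44 ± 0.09, limma adjusted p = 0.00352), a call that held in 24 of 24 alternatives. Tat, a classic glucocorticoid target, had 13236 in dwarf and 10343 in wild type mice of 6 months (0.34 ± 0.20, adjusted p = 0.272). With age in dwarf mice 1 of the 14 was higher and 3 were lower, where 16.5% of all sets were called. Fkbp5 was higher (1.46 ± 0.32, held in 16 of 18 alternatives). Pck1 (-1.52 ± 0.23, 18 of 18), Tat (-0.70 ± 0.22, 8 of 18) and Nfkbia (-0.55 ± 0.17, 8 of 18) were lower. With age in wild type mice Pck1 alone was called, as lower (-0.99 ± 0.23, 10 of 18).

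Among 5472 other genes with a tested set, those with log2 signals most like Mt1 over the 14 arrays were Mroh1 (Pearson r = 0.937), Mt2 (0.931), Agt, which encodes angiotensinogen (0.880), the lysosomal Cln3 (0.874) and Dvl1 (0.863). Agt averaged 10302 ± 2096 in dwarf and 5357 ± 1131 in wild type mice of 22 months (SD, n = 3 each), and 15864 ± 2539 against 5235 ± 1292 at 6 months (n = 4 each). The genes most like Hamp were the nuclear receptor Ppara (0.845), Cyp2j5 (0.837), Hsd3b6 (0.820), Eif5 (0.754) and Dym (0.748). Those most like Hfe were Perp (0.952), Lrrc59 (0.945), Tars (0.923), Timm23 (0.914) and Bpgm (0.914). Bpgm averaged 55.5 ± 33.8 in dwarf mice of 6 months, close to the floor of 54.9, so its correlation rests in part on floored values. Cyp2j5 was also low, with 107 ± 75.2 in dwarf and 239 ± 52.1 in wild type mice of 6 months. At 22 months it averaged 144 in dwarf and 140 in wild type mice. Only its mean in wild type mice of 6 months, where Hamp was also highest, lay above the filter of 184.8. Perp averaged 1531 ± 165 in dwarf and 1603 ± 468 in wild type mice of 22 months, and 822 ± 174 against 1841 ± 285 at 6 months. These correlations hold the group differences and array effects that the genes share, and are descriptions only.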

How the data were processed

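Biotin-labelled liver RNA of 14 mice was measured on Affymetrix mouse arrays, 1 mouse per array. The authors deposited 1 linear signal intensity per probe set and array; the submitters' processing notes name MAS5 (version not given in the sources used here). No detection calls were used.

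Signals below the pooled 25th percentile (54.9) were set to it. Tests were kept to probe sets above the pooled median (184.8) on 3 or more arrays, and 66 control sets were left out, leaving 7227. Of the 12488 sets, 10855 had 1 symbol in the platform annotation, 396 had several and 1237 were not listed; 10839 of the 10855 matched RefSeq GRCm38.p6 by gene ID, used for names and sequences alone. A gene was represented by its tested set with the highest mean.

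Log2 signals of all 14 arrays were modelled by group in limma 3.58.1 (R 4.3.3; trended eBayes), with Benjamini-Hochberg adjustment over all tested sets in each of 6 contrasts and a threshold of 0.05. Pairs of genes were compared with 100000 permutations within groups in Python 3.11.15 with scipy 1.17.1, and array measures with exact permutation tests. The pair of Fth1 and Ftl1 was not run.

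Members and gene lists were chosen with earlier results of these data known. Named genes were all members, up to 4 called genes per list and comparison, the 5 genes most like Mt1, Hamp and Hfe, and some genes of the lists that did not pass, which were chosen after their values were seen. Alternatives were quantile and median scaling, a floor at the 10th percentile, a pseudocount of 50, no filter, a filter at the 75th percentile, no intensity trend, array weights, the compared groups alone, 2 covariates and leaving out each array. Nothing in the labels says how the arrays were batched. RefSeq promoters, from 250 bases before to 50 after a start site, were found for 8 of the 10 members.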

Additional observations from a re-analysis of the deposited data

Results flagged for a closer look

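Of 20 sets of 4 mice tested for a value far from the others (tested probe sets of the members at 6 months, on the log2 scale), 2 were picked out, and chance picks out about 1 in 20. In wild type mice of 6 months, Cp of animal 88 (12095) stood below the others (14185 to 14418), with a gap of 0.907 of the whole range. In the same group the second Fth1 set of animal 82 (9133) stood above the others (5458 to 5819), with a gap of 0.876 of the range. The gaps were picked out because they were above the critical value of 0.829.

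The 3' control set of Tfrc, which entered no test, had signals of 166.7, 192.5, 329.2 and 184.5 in dwarf mice of 6 months, against 39.2, 159.0, 126.0 and 113.3 in wild type mice. It was picked out because all dwarf mice lay above all wild type mice, by 2.00-fold in the means. At 22 months the groups overlapped (143.2, 121.0 and 368.8 in dwarf mice, against 57.2, 113.1 and 163.0 in wild type mice). The control sets for the 5' end and the middle of Tfrc had signals of at most 89.9 and 17.3 on any array, near or below the floor of 54.9.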

How the results depend on the processing

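Of 1200 values of the member probe sets under alternatives, 1143 kept their side of the threshold, 23 lost it, 34 gained it and 0 of the called ones changed sign. Counts of the 8 genes called moved as follows. At 6 months (3) the stricter filter gave 5, both scalings and the compared groups alone 4, and no filter, no intensity trend and array weights 2 (Hamp lost); leaving out 1 array gave 2 to 3. At 22 months (0) quantile normalization gave 2, the stricter filter 2, array weights 3 and the compared groups alone 1, and leaving out 1 array gave 0 to 1 (Mt2, without wild type animal 24 or dwarf animal 8). With age in dwarf mice (1) quantile normalization and median scaling gave 2, either covariate gave 0, and leaving out 1 array gave 1 to 2 (Fth1 added without dwarf animal 83). For the difference between ages (0) quantile normalization and median scaling gave 1, and leaving out 1 array gave 0 to 1 (Hfe, without wild type animal 2). For the average (3) the stricter filter and array weights gave 5, both scalings 4, and leaving out 1 array gave 3 to 5, the highest without wild type animal 88. With age in wild type mice the count was 0 throughout. The gene added by both scalings for the difference between ages was Hfe (1.16, adjusted p = 0.0464, and 1.21, adjusted p = 0.0447). Median scaling moved the median log2 change of all sets at 6 months to -0.10, against 0.10 as deposited, and that with age in dwarf mice to 0.12, against -0.09, and that of the difference between ages to 0.12, against -0.07. The median of the average was -0.05 with it, against 0.05.

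Over all tested sets, calls ran from 630 to 1098 at 6 months (962 in the report's fit), 127 to 442 at 22 months (212), 51 to 1646 with age in dwarf mice (1193), 9 to 472 with age in wild type mice (180), 48 to 199 for the difference between ages (158) and 535 to 945 for the average (742). Of 1037 values of the other named genes, 232 lost their call and 0 changed sign. The r of Mt1 with Mt2 was 0.916 and 0.906 with median scaling and quantile normalization, chosen after seeing the data. The cause of these shifts was not tested. No paired analysis was run, since the labels name no pairs of mice. At 6 months the wild type mice have even animal numbers and the dwarf mice odd ones, and the labels do not say why. The number of arrays limits the precision, and nothing says whether mice shared a litter or a cage.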

Other observations

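Alas2, the erythroid enzyme that starts haem synthesis and a marker on the erythroid list, was singled out after its values were seen. It was lower in dwarf mice at 6 months (log2 change -2.48 ± 0.20) and higher at 22 than at 6 months in dwarf mice (1.37 ± 0.22), and the genotype difference changed with age (1.89 ± 0.31, limma adjusted p = 0.00618). Of the 3 tested erythroid markers it was the only 1 called in these comparisons, where 13.3%, 16.5% and 2.19% of all sets were called. The median log2 change of the 3 markers between the genotypes was -0.29 at 6 months and 0.82 at 22 months. The calls of Alas2 were not recomputed under the alternatives.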
